A study of Mus musculus with 48 samples.

Results

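The complement genes followed here are 9 of the 51789 gene rows of the study's count table: C1qa, C1qb, C1qc, C3, C4b, Cfb, Cfp, C3ar1 and C5ar1. They were chosen by symbol, as components and receptors of the complement system, and each symbol matched 1 row. RNA was measured in 48 libraries of mouse macrophages, 3 in each of 16 groups, which made up 8 cell populations, each kept with vehicle (DMSO) or with 10 µM of the compound AP-3-84 for 4 h. The ascites population held F4/80+ cells taken with magnetic beads from peritoneal washes 45 days after injection of ID8 ovarian tumour cells, and its genotype is labelled B6(Cg)-Tyrc-2J/J. The thioglycollate population (thio) held F4/80+ cells taken in the same way from wild-type C57BL/6 mice 4 days after 1 ml of 3% thioglycollate was injected into the peritoneum, which draws inflammatory macrophages there. The other 6 populations were C57BL/6 macrophages raised from wild-type (WT) or p53 knockout (KO) bone marrow, with M-CSF at 10 ng/mL for 6 days. Some were left unpolarized (M0). Some received LPS (100 ng/mL) together with IFN-γ (50 ng/mL) during 24 h (M1), and some IL-4 together with IL-13 (each at 10 ng/mL) for as long (M2). The genotype field of the labels calls all bone marrow-derived libraries wild-type, and the titles, descriptions and series design give the KO libraries. The ascites and thio populations differ in genotype label as well as in what was injected. Whether replicate libraries came from separate animals or cultures is not given in the sources used here, so p-values measure the spread between these libraries, which may be technical.

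Complement is a chain of plasma and cell-surface proteins that marks targets for uptake and calls in leukocytes. The classical pathway starts when C1q, built from the A, B and C chains that C1qa, C1qb and C1qc encode, binds antibody or altered cell surfaces, and C4 is then split. All pathways meet at C3; in the alternative pathway factor B (Cfb) joins with split C3 to form a convertase, which properdin (Cfp) holds together. The small fragments C3a and C5a act through the receptors C3ar1 and C5ar1 on myeloid cells. Most plasma complement comes from the liver, while macrophages are a main source of C1q and also make C3, factor B and properdin.

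The 3 C1q genes lie side by side. In GENCODE M21 (GRCm38), C1qb spans chr4:136880129-136886187, C1qc spans chr4:136889804-136893065 and C1qa spans chr4:136895917-136898803, all on the minus strand and within 18.7 kb. C4b (chr17:34728380-34743882) and Cfb (chr17:34856374-34862518) lie within 134 kb of each other on the minus strand of chromosome 17. The others, also on the minus strand, are C3 (chr17:57203970-57228136), Cfp (chrX:20925454-20931555), C3ar1 (chr6:122847138-122856161) and C5ar1 (chr7:16246743-16259540). RefSeq promoter entries (GRCm38.p6) matched 6 of the 9 genes: C1qb, C1qc, C3, Cfp, C3ar1 and C5ar1. The 250 bases before the annotated start are printed for C1qb and C1qc, neighbours in the C1q cluster, and for C3, on which all pathways meet. They are given 5′ to 3′ in the direction of transcription, from chr4:136886201-136886450, chr4:136892915-136893164 and chr17:57228137-57228386, and capitals mark matches to the motifs named after them.
C1qb: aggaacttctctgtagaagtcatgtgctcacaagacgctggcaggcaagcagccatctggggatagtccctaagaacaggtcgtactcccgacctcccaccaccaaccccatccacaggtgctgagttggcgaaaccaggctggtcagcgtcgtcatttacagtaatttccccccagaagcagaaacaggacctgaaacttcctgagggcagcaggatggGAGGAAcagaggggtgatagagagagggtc
C1qc: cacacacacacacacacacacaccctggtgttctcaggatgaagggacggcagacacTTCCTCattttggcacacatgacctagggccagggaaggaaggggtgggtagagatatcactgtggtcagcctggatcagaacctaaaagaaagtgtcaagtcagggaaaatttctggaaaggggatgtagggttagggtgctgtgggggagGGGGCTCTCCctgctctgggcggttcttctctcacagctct
C3: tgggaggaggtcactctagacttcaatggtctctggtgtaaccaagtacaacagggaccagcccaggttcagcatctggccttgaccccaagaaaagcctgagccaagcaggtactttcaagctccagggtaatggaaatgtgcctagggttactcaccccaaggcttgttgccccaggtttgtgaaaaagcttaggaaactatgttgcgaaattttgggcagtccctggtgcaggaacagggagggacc
Both strands were searched for 4 motifs: the interferon-gamma element TTCNNNGAA, the interferon-stimulated element GAAANNGAAA, the NF-kB consensus, and the PU.1 core GAGGAA. C1qb held the PU.1 core from 30 to 25 bases before the start. C1qc held it on the other strand from 193 to 188 bases before the start, and an NF-kB match from 41 to 32 bases before it. These starts are those of RefSeq, and the GENCODE gene of C1qc begins further upstream: 151 bases of its window, the NF-kB match among them, lie inside that gene, while its PU.1 core does not. The windows of C5ar1 and C3ar1 also reach into the GENCODE gene, by 202 and 4 bases. The windows of C3, Cfp, C3ar1 and C5ar1 held none of these letters. Among the 32851 promoters of the table, 23.3% held the PU.1 core, 3.90% the NF-kB consensus, 7.02% the interferon-gamma element and 2.98% the interferon-stimulated element, so the matches are a description only.

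The 12 peritoneal libraries were deeper (15532373 to 19417581 counts) than the 36 bone marrow-derived ones (3081707 to 4645148 counts), and levels are given as CPM, counts scaled to 1000000 per library. Trp53 itself, at 9.20 to 13.2 CPM in WT M0 and 3.14 to 6.49 CPM in KO M0 vehicle libraries, was called lower in KO cells in M0 alone (log2 difference -1.34, adjusted p = 0.0102). In M1 (7.30 to 9.54 against 3.79 to 9.11 CPM; -0.22, 0.765) and M2 cells (5.38 to 9.95 against 2.70 to 7.19 CPM; -0.63, 0.407) it was not called. It kept 3′ reads in every KO vehicle library, and which stretch of the gene was deleted is not given in the sources used here. Cdkn1a, a target of p53, was lower in KO than WT vehicle libraries in M0, M1 and M2 (log2 difference -4.58, -1.54 and -3.21). The fixed macrophage markers were all detected in every group: Csf1r ran from 1107 to 8054 CPM and Adgre1, which encodes F4/80, from 229 to 2746 CPM in vehicle libraries. In 2 peritoneal and 13 bone marrow-derived libraries, the mean correlation with another group's libraries was above that with their own. Libraries that stand apart are the 3 KO M0 vehicle libraries as a group (mean correlation with their own group 0.960 to 0.963, with the nearest other group at most 0.916), KO M0 AP-3-84 replicate 3, nearer to KO M0 vehicle (0.949) than to its own group (0.936), and WT M2 vehicle replicate 1 and KO M2 vehicle replicate 3. In these last libraries the 8 neutrophil markers sum to 3815 and 3117 CPM, against 325 to 597 CPM in the other M2 vehicle libraries. KO M1 AP-3-84 replicate 1 was also high in these markers (3500 CPM, against 762 and 702 CPM in replicates 2 and 3) but was not set apart. KO M2 vehicle replicate 1 and KO M1 vehicle replicate 2 were not set apart either. Both were nearer to their AP-3-84 groups (0.968 and 0.971) than to their own (0.945 and 0.952). The KO M0 vehicle libraries are the whole of their group, so no KO M0 result can be given without them. Many results that rest on KO M0 AP-3-84 replicate 3, WT M2 vehicle replicate 1 or KO M2 vehicle replicate 3 are also given without these 3. That choice was made after seeing the data.

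Of the 9 genes, 9 passed the filter on low counts in peritoneal cells and 8 in bone marrow-derived cells. C4b did not pass there: it had 10 counts over the 36 bone marrow-derived libraries, with 30 of them at 0, against 20272 counts over the 12 peritoneal libraries (67.6 to 139 CPM). In the WT M0 vehicle group, for example, 0 counts allow up to 0.239 CPM (3 counts over the group). C4b shares 2811 stretches of 30 bases with its neighbour C4a, 49.2% of those of the smaller set, so its counts are uncertain where reads could be split between them, although C4a had only 66 counts in the peritoneal libraries. Cfb was low in the M0 and M2 groups, with means from 1.01 to 10.4 CPM except in KO M0 with AP-3-84 (22.9 CPM). In bulk RNA, fewer cells of a type and less RNA per cell cannot be told apart, and this holds for every difference reported here.

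**Figure D1:**
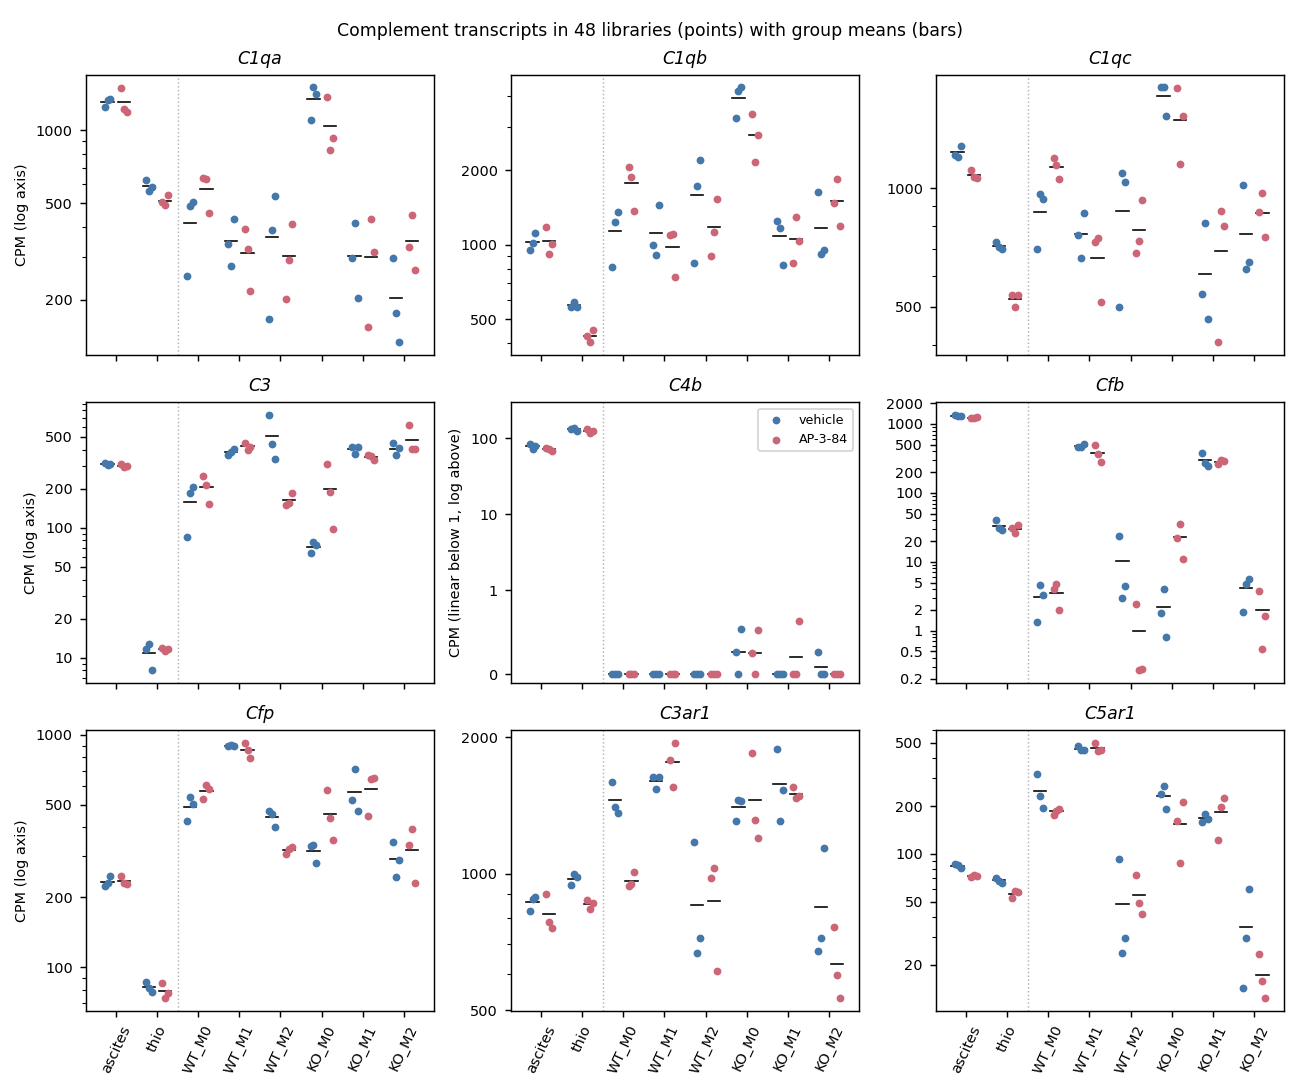
CPM of each gene (vertical axis, log scale, except C4b, which is linear below 1) in 8 populations, with 1 point a library, vehicle in blue and AP-3-84 in red, and bars at group means; a dotted line separates the peritoneal from the bone marrow-derived libraries, which were scaled apart. The C1q genes are highest in KO M0 vehicle cells (means of 1342, 3934 and 1709.6 CPM), Cfb spans the widest range, and C4b is near 0 in all bone marrow-derived groups.

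Levels across the 16 groups, shown in the plot of all libraries, set the genes apart. C1qa, C1qb and C1qc had their highest means in KO M0 vehicle cells, at 1342 ± 209, 3934 ± 578 and 1709.6 ± 159.9 CPM (SD, n = 3), and these overlapped the next group in the order. The lowest mean of C1qb was 429 ± 25.4 CPM, in thio cells with AP-3-84, 9.17-fold below the highest. C3 ran from 505 ± 209 CPM in WT M2 vehicle to 10.8 ± 2.48 CPM in thio vehicle cells, 46.7-fold. Cfb had the widest range, from 1313 ± 27.2 CPM in ascites vehicle to 1.01 ± 1.27 CPM in WT M2 cells with AP-3-84. Cfp was highest in WT M1 vehicle (897 ± 3.42 CPM) and lowest in thio cells with AP-3-84 (78.9 ± 5.86 CPM). C3ar1 had the narrowest range of the 8 genes detected in both kinds of library, from 1759 ± 194 CPM in WT M1 to 630.4 ± 118 CPM in KO M2, both with AP-3-84. C5ar1 had its highest and lowest means in the same pair of groups, at 464 ± 32.5 and 17.1 ± 5.57 CPM, 27.1-fold apart. Most neighbours in these orders were not apart: of 15 neighbouring pairs of groups, the libraries overlapped in 14 for C1qa, C1qc and C3ar1, 13 for C4b, 12 for C1qb, Cfb and Cfp, 11 for C3 and 10 for C5ar1. Peritoneal and bone marrow-derived libraries were scaled apart and differ in depth and in sex of donors, so no test was made across them.

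Ascites against thioglycollate macrophages asks how tumour-associated peritoneal macrophages differ from elicited ones. Of the 9 genes, 7 were higher and 2 lower in ascites vehicle cells. Factor B and C3, the core of the alternative pathway, differed most, followed by properdin and the C1q chains, and C4b went the other way. Among all 16955 genes tested, 20.3% were higher and 13.4% lower, and the median log2 difference was 0.85 over the 9 genes and 0.05 over all. Cfb stood at 1344, 1299 and 1295 CPM in the ascites libraries and at 39.7, 30.7 and 29.3 CPM in the thio libraries. C3 stood at 315, 307 and 307 CPM in ascites and at 11.7, 12.8 and 8.03 CPM in thio. For both genes the groups lay more than an order of magnitude apart, at 39.5-fold for Cfb (log2 difference 5.31, SE 0.12, edgeR adjusted p = 2.09e-14) and 28.6-fold for C3 (4.84, SE 0.12, 2.14e-14). Cfp, whose product stabilizes the convertase they form, was 223, 231 and 247 CPM against 86.9, 81.9 and 78.0 CPM (log2 difference 1.51, SE 0.07, adjusted p = 1.82e-11).

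The C1q chains were higher in ascites cells by a smaller step. C1qa was 1253, 1332 and 1346 CPM in ascites against 624, 562 and 584 CPM in thio libraries. C1qb was 951, 1016 and 1120.0 CPM against 562, 587 and 561 CPM, and C1qc was 1217, 1200.3 and 1279 CPM against 732, 711 and 699 CPM. None of the 3 overlapped, and the log2 differences were 1.15 (SE 0.08), 0.85 (SE 0.08) and 0.79 (SE 0.05), with edgeR adjusted p-values of 1.92e-09, 2.46e-07 and 1.92e-09. C4b, the classical component split after C1q binds, was lower in ascites, at 85.4, 73.3 and 80.6 CPM against 131, 139 and 124 CPM (log2 difference -0.72, SE 0.08, adjusted p = 6.57e-07). The receptors differed little. C5ar1 was 86.4, 84.9 and 81.3 CPM in ascites and 70.8, 67.7 and 65.7 CPM in thio (log2 difference 0.31, SE 0.07, adjusted p = 0.00173). C3ar1 was 829, 878 and 887 CPM against 941, 997 and 981 CPM (log2 difference -0.17, SE 0.06, adjusted p = 0.0464), a call that ended without any 1 of the 6 libraries: the adjusted p was 0.183, 0.0922 and 0.0683 without ascites replicates 1, 2 and 3, and 0.0588, 0.157 and 0.123 without thio replicates 1, 2 and 3. It was also lost with library totals as the scale (log2 difference -0.07, adjusted p = 0.399).

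Other cells' markers moved with these differences. The 9 epithelial, mesothelial or ID8 tumour markers were all detected in ascites vehicle cells and sum to 212 to 251 CPM, against 5.10 to 6.77 CPM in thio cells, where Epcam and Msln were at 0. The 5 fibroblast markers sum to 38.0 to 56.1 CPM against 18.4 to 29.3 CPM, and the 8 M1 markers, all detected in ascites cells, to 298 to 316 CPM against 63.8 to 70.0 CPM, with Nos2 at 0 in thio cells. The 8 M2 markers were also higher in ascites cells (799 to 913 against 331 to 344 CPM). The neutrophil markers (29.1 to 34.0 against 61.8 to 65.5 CPM, with Elane, Mpo and Ltf at 0 in ascites cells) and the eosinophil or mast cell markers (0.719 to 1.41 against 4.72 to 4.86 CPM, with 3 and 1 of the 5 detected) were lower. The 9 macrophage markers sum to 29563 to 31365 CPM in ascites and 35042 to 35534 CPM in thio cells. The part of these cells or states in the higher Cfb, C3 and C1q levels was not tested.

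**Figure D2:**
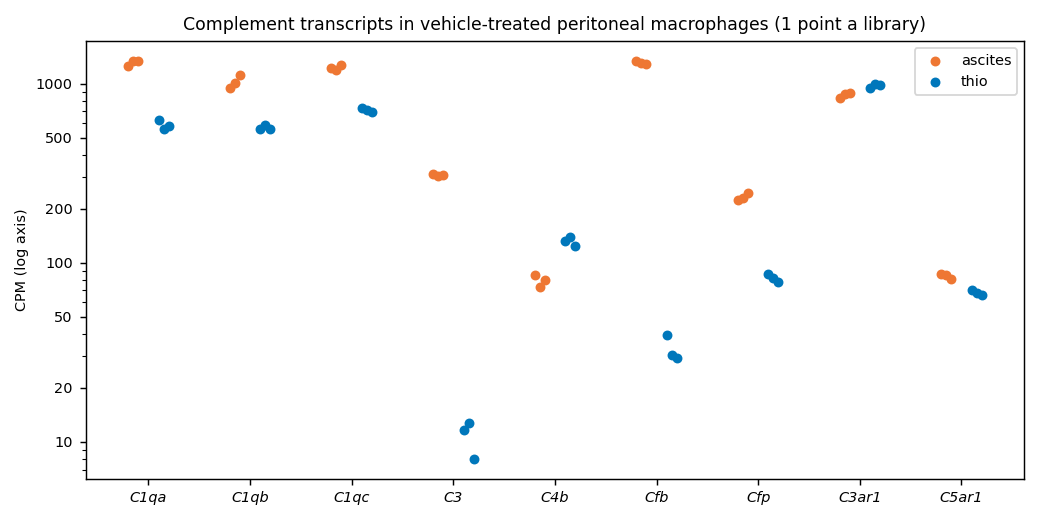
CPM (log axis) of the 9 genes in the 3 ascites and 3 thio vehicle libraries, with 1 point a library. Cfb (1295 to 1344 against 29.3 to 39.7 CPM) and C3 (307 to 315 against 8.03 to 12.8 CPM) show the widest gaps, and C4b and C3ar1 are lower in ascites.

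M1 against M0 asks what LPS and IFN-γ do to these transcripts. In WT cells Cfb, C3 and Cfp rose and none of the 8 tested genes fell (8.01% of all genes higher, 7.49% lower; median log2 difference 0.50 over the 8 and 0.00 over all genes). In KO cells Cfb, C3 and Cfp rose as well, and C1qa, C1qb and C1qc fell (22.8% of all genes higher, 21.8% lower). Cfb went from 1.35, 4.54 and 3.32 CPM in WT M0 to 459, 458 and 514 CPM in WT M1, and from 1.83, 4.00 and 0.811 CPM in KO M0 to 383, 273 and 245 CPM in KO M1. That was the steepest rise of the 8 genes, at a log2 difference of 7.28 (SE 0.63, edgeR adjusted p = 2.15e-08) in WT and 7.10 (SE 0.66, 1.41e-08) in KO cells; without KO M0 replicate 2 the latter was 7.79. C3 went from 84.8, 184 and 208 CPM to 362, 380.2 and 407 CPM in WT cells (log2 difference 1.27, SE 0.30, adjusted p = 0.00459). In KO cells it started lower, at 63.7, 77.3 and 74.1 CPM, and reached 421, 368 and 415 CPM (2.48, SE 0.32, 5.74e-07). The WT call for C3 was lost when only the groups compared were fitted (adjusted p = 0.0586). Cfp rose from 427, 542 and 504 CPM to 895, 901 and 895 CPM in WT cells (0.87, SE 0.18, 0.00106) and from 333, 338 and 281 CPM to 523, 711 and 470.0 CPM in KO cells (0.84, SE 0.18, 0.000357).

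The C1q chains behaved differently in the 2 genotypes, as the linear plot of C1q levels shows. C1qb was 816, 1237 and 1364 CPM in WT M0 and 997, 914 and 1453 CPM in WT M1, a log2 difference of -0.02 (2 SE either side, -0.62 to 0.57). In KO cells it dropped from 3271, 4196 and 4335 CPM in M0 to 1253, 1168 and 832 CPM in M1. The M1 libraries of both genotypes overlapped, and the KO M0 libraries lay above all others. C1qa was 251, 489.6 and 507 CPM in WT M0 and 339.8, 276 and 429 CPM in WT M1, while in KO cells it fell from 1106, 1505 and 1414 CPM to 297, 413 and 203 CPM. C1qc was 701, 969 and 939 CPM in WT M0 and 760.4, 665 and 865 CPM in WT M1, and in KO cells it fell from 1801, 1803 and 1525 CPM to 540.0, 814 and 466 CPM. The log2 differences in KO cells were -2.14 (SE 0.42), -1.86 (SE 0.31) and -1.50 (SE 0.27) for C1qa, C1qb and C1qc, with adjusted p-values of 0.000186, 2.02e-05 and 5.95e-05. The difference between genotypes was itself past the threshold for C1qa, C1qb, C1qc and C3, in a test in which 20.7% of all genes were called. It was -1.89, -1.84 and -1.31 on the log2 scale for the C1q chains (adjusted p = 0.0203, 0.00259 and 0.0138) and 1.22 for C3 (0.0413). C1qa lost this call without WT M0 replicate 1, WT M1 replicate 3 or KO M1 replicate 3 (adjusted p = 0.068, 0.0624 and 0.0638). C3 lost it without any of 10 of the 12 libraries (adjusted p from 0.0556 without KO M0 replicate 2 to 0.118 without WT M0 replicate 3), the exceptions being WT M0 replicate 1 and KO M1 replicate 2. All 4 differences use the KO M0 vehicle libraries.

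**Figure D3:**
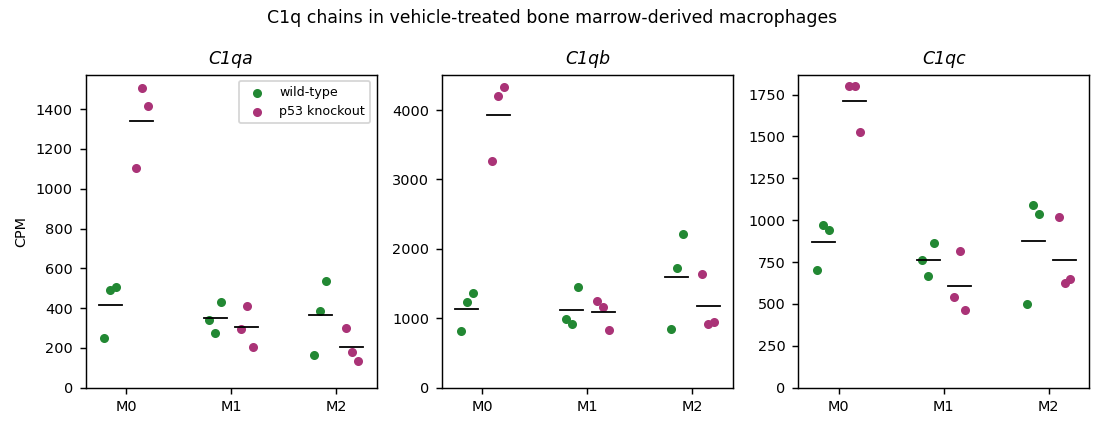
CPM of C1qa, C1qb and C1qc (linear axes from 0) in vehicle-treated M0, M1 and M2 cells, wild-type in green and p53 knockout in purple, with 1 point a library and bars at the means of 3. The KO M0 libraries stand above all other vehicle libraries for each chain (C1qb at 3271 to 4335 CPM).

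Neither receptor was called between M1 and M0 cells in either genotype. C5ar1 was 319, 233 and 193 CPM in WT M0 and 479.9, 449.6 and 452 CPM in WT M1, groups that did not overlap, with a log2 difference of 0.89 (SE 0.40) that missed the threshold (edgeR adjusted p = 0.137). It was called under 3 alternatives: no filter on low counts, only the groups compared, and without the 3 libraries that stand apart (0.88, adjusted p = 0.0106). In KO cells it was 239.5, 266 and 192 CPM in M0 and 159.6, 179 and 167 CPM in M1 (log2 difference -0.46, SE 0.40, adjusted p = 0.36), called only in the fit of the groups compared (0.0327). The difference between genotypes in this step of C5ar1 was -1.35 and not called (edgeR adjusted p = 0.0887). Without the 3 libraries that stand apart it was -1.33 and called (0.00532). None of these 3 libraries is in the M0 or M1 vehicle groups. That fit changed the spread and scaling shared with the other groups, not the libraries compared. Neither C5ar1 call under it is further evidence of a difference. C3ar1 was 1359.7 to 1596 CPM in WT M0 and 1533 to 1631 CPM in WT M1, and 1304 to 1450.1 CPM in KO M0 and 1305 to 1882 CPM in KO M1, with overlap in both genotypes. In KO M1 vehicle cells the 9 macrophage markers sum to 16650 to 25570 CPM, against 44143 to 47099 CPM in WT M1, and the 8 neutrophil markers, all detected, to 969 to 2424 CPM against 430.5 to 561 CPM. These are 2 of the 7 marker lists of 11 that did not overlap between the genotypes in M1 cells. The M1, M2, resident peritoneal macrophage, T cell and fibroblast lists were higher in KO cells. The T cell sums were at most 1.92 CPM, with 3 of the 5 markers detected in KO M1 and 1 in WT M1. Of the 6 resident peritoneal macrophage markers, 4 were detected in KO M1 and 2 in WT M1. Against M0, 5 lists in WT and 7 in KO cells did not overlap, among them in KO cells the macrophage and fibroblast markers (lower) and the neutrophil markers (higher). In WT cells the macrophage markers were higher in M1 than in M0 (44143 to 47099 against 30760 to 39015 CPM). The M1 list was higher and the M2 list lower in both genotypes. Their part in the M1 values was not tested.

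M2 against M0, the effect of IL-4 and IL-13, set C3 against the receptors. In WT cells C3 rose while C3ar1 and C5ar1 fell (12.7% of all genes higher, 10.7% lower). In KO cells C3 rose, and C3ar1, C5ar1 and the 3 C1q chains fell (20.1% higher, 18% lower; median log2 difference -0.94 over the 8 genes and 0.02 over all). C3 was 738, 441 and 336 CPM in WT M2, above all WT M0 libraries, with a log2 difference of 1.67 (SE 0.30, edgeR adjusted p = 0.000176). In KO M2 it was 446, 361 and 414 CPM, for a log2 difference of 2.51 (SE 0.32, adjusted p = 6.67e-07). C5ar1 fell to 92.4, 23.8 and 29.4 CPM in WT M2 (-2.35, SE 0.42, 0.000195) and to 14.3, 29.5 and 60.0 CPM in KO M2 (-2.74, SE 0.43, 1.98e-05). The highest value in each of these groups is from the library with high neutrophil markers, and without WT M2 replicate 1 and KO M2 replicate 3 the log2 differences were -3.23 and -3.39. C3ar1 fell to 1174, 667 and 720.4 CPM in WT M2 (-0.77, SE 0.20, 0.00594) and to 675, 721 and 1136 CPM in KO M2 (-0.73, SE 0.20, 0.00532). Without WT M2 replicate 2 the WT call for C3ar1 was lost (adjusted p = 0.053). Without the 3 libraries that stand apart, C3 rose by 1.28 in WT and 2.48 in KO cells, C3ar1 changed by -1.07 and -1.02, and C5ar1 by -3.22 and -3.41, all still called. Both polarized states are set against the same M0 vehicle libraries.

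Factor B did not pass the threshold in M2 cells of either genotype. It was 23.7, 3.02 and 4.43 CPM in WT M2, with the high value in replicate 1 again, and 1.86, 4.73 and 5.70 CPM in KO M2 (log2 difference against M0 1.79 and 0.93, adjusted p = 0.0527 and 0.378). DESeq2, the fit without a filter on low counts, the fit of all 48 libraries and the fits without WT M2 replicate 2 or replicate 3 each called the WT difference. Without replicate 1 it was 0.27 (adjusted p = 0.826). Cfp was 403 to 471 CPM in WT M2 and 244 to 345 CPM in KO M2, with log2 differences of -0.14 and -0.11 that were not called. The C1q chains in WT M2 overlapped WT M0, with C1qb at 842, 1727 and 2214 CPM (log2 difference 0.49, adjusted p = 0.252, and 0.78, adjusted p = 0.0507, without replicate 1). In KO M2, C1qa was 299, 177 and 133 CPM, C1qb 1643, 922 and 953 CPM, and C1qc 1021, 622 and 651 CPM. Against KO M0 these were lower by log2 differences of -2.72 (SE 0.43), -1.75 (SE 0.31) and -1.16 (SE 0.27), with adjusted p-values of 1.97e-05, 5.70e-05 and 0.00115. The genotypes differed in this step as well, by -2.53, -2.23 and -1.17 for C1qa, C1qb and C1qc (adjusted p = 0.00223, 0.000382 and 0.0221), where 27.1% of all genes were called. Without the 3 libraries that stand apart, the steps in KO cells were -2.51, -1.63 and -1.07 and the differences between genotypes -2.66, -2.42 and -1.36, all called. For C3 the difference between genotypes in this step was 0.84 and not called (edgeR adjusted p = 0.144). Without those 3 libraries it was 1.20 and called (0.0199). The call for C1qc between genotypes was lost without WT M0 replicate 1, WT M2 replicate 2 or 3, or KO M2 replicate 2 or 3 (adjusted p = 0.0663, 0.0714, 0.0723, 0.061 and 0.0658). The 9 macrophage markers sum to 6421 to 18975 CPM in KO M2 and 25477 to 31617 CPM in WT M2 vehicle cells, and 32911 to 39725 CPM in KO M0. Against M0, 7 of the 11 marker lists in WT and 6 in KO cells did not overlap, among them the M2 and the M1 markers, both higher in both genotypes. The M1 markers sum to 308 to 455 against 45.5 to 178 CPM in WT cells. In KO cells they sum to 201 to 428 against 100.4 to 117 CPM. The fibroblast markers were higher in WT M2 (35.9 to 54.0 against 22.5 to 26.2 CPM) and lower in KO M2 (47.5 to 78.6 against 161 to 288 CPM). Their part in these differences was not tested.

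**Figure D4:**
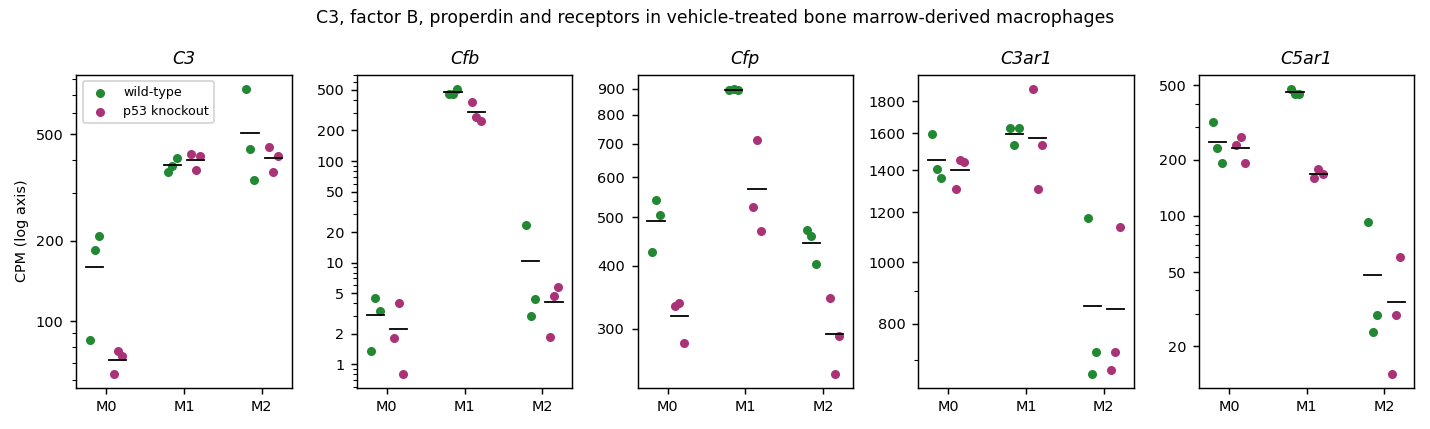
CPM (log axes) of C3, Cfb, Cfp, C3ar1 and C5ar1 in vehicle-treated M0, M1 and M2 cells, wild-type in green and p53 knockout in purple, with 1 point a library and bars at the means of 3. Cfb is at 245 CPM or more in M1 libraries and at most 23.7 CPM in the others, C3 is higher in M1 and M2 than in M0 cells, and C5ar1 is lowest in M2 cells.

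KO against WT vehicle cells asks what loss of p53 changes in each state. In M0 cells C1qa, C1qb and C1qc were higher, and C3 and Cfp lower, in KO than in WT libraries (16.4% of all genes higher, 16.8% lower; median log2 difference -0.07 over the 8 genes and 0.03 over all). The per-library values stand above, and none of the 5 genes overlapped between genotypes, which describes 3 libraries against 3 and is no further test. C1qb differed most, at 3934 ± 578 against 1139 ± 287 CPM (SD, n = 3), 3.45-fold (log2 difference 1.79, SE 0.31, edgeR adjusted p = 7.62e-05). C1qa was 3.23-fold higher (1.69, SE 0.41, 0.00264) and C1qc 1.97-fold higher (0.97, SE 0.27, 0.006). C3 was 2.22-fold lower (-1.15, SE 0.31, 0.00509) and Cfp 1.55-fold lower (-0.63, SE 0.18, 0.00757). Factor B and the receptors gave log2 differences of -0.49 for Cfb, -0.05 for C3ar1 and -0.09 for C5ar1, none of them called. The 5 fibroblast markers sum to 161 to 288 CPM in KO M0, with all 5 detected, and to 22.5 to 26.2 CPM in WT M0 vehicle libraries, where Pdgfra was at 0. The neutrophil markers sum to 544 to 671 CPM, with Ly6g at 0, against 254 to 470.4 CPM. The M2 (387 to 491 against 255 to 326 CPM) and eosinophil or mast cell markers (3.93 to 4.31 against 0 to 1.02 CPM, with 3 and 2 of the 5 detected) were higher too. The part of such cells in the C1q difference was not tested.

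In M1 cells none of the 8 genes tested was called higher in KO cells, and Cfp and C5ar1 were lower (5.93% of all genes higher, 5.71% lower). Cfp was 523, 711 and 470.0 CPM against 895, 901 and 895 CPM (log2 difference -0.66, SE 0.18, edgeR adjusted p = 0.0157), and C5ar1 was 159.6, 179 and 167 CPM against 479.9, 449.6 and 452 CPM (-1.45, SE 0.40, 0.0199). Neither gene's groups overlapped, but each call was lost without single libraries. For Cfp the adjusted p was 0.052 without WT replicate 2, 0.0743 without KO replicate 1 and 0.111 without KO replicate 3, and 0.0773 with library totals as the scale. For C5ar1 it was 0.0553 and 0.0501 without WT replicates 1 and 2, and 0.076 and 0.0777 without KO replicates 1 and 3. In M2 cells edgeR called 0 of 8 genes (1.21% of all genes higher, 2.34% lower); 3 had an unadjusted p under 0.05 and DESeq2 called 1. Cfp was nearest, at 345, 244 and 290.2 CPM in KO against 471, 459 and 403 CPM in WT libraries (-0.60, SE 0.18, adjusted p = 0.0564). It was called under 4 of 14 alternatives: DESeq2, no filter on low counts, all 48 libraries in 1 fit, and without KO M2 vehicle replicate 1. Without the 3 libraries that stand apart its difference was -0.57 (edgeR adjusted p = 0.238). The highest adjusted p under an alternative was 0.264.

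AP-3-84 against vehicle gave 8 calls among 66 tests of a gene in a population, 3 higher and 5 lower, in 3 of the 8 populations. In thio cells C1qb, C1qc and C5ar1 fell slightly (2.51% of all genes higher, 1.82% lower). C1qc went from 732, 711 and 699 CPM with vehicle to 534, 501 and 536 CPM with AP-3-84 (log2 change -0.45, SE 0.05, edgeR adjusted p = 6.63e-05). C1qb went from 562, 587 and 561 CPM to 429, 404 and 455 CPM (-0.41, SE 0.08, 0.00739). C1qa, the other chain, was 624, 562 and 584 CPM against 504, 493 and 542 CPM and was not called (-0.20, SE 0.08, 0.176). All 3 chains were thus below every vehicle library, by at most 1.36-fold in their means. C5ar1 went from 70.8, 67.7 and 65.7 CPM to 52.7, 58.1 and 57.7 CPM (-0.28, SE 0.07, 0.0278). That call was lost without thio vehicle replicate 1, 2 or 3 (adjusted p = 0.126, 0.0854 and 0.0547) and without AP-3-84 replicate 1 or 3 (0.109 and 0.0527). In a fit of all 48 libraries none of the 3 genes was called (adjusted p of 0.926 for C1qc and 1 for C1qb and C5ar1). The 9 macrophage markers sum to 28355 to 33562 CPM with AP-3-84 and 35042 to 35534 CPM with vehicle. They are 1 of 7 marker lists of 11 without overlap: M1, M2 and neutrophil markers were lower as well, and resident peritoneal macrophage, fibroblast (29.4 to 43.9 against 18.4 to 29.3 CPM) and dendritic cell markers higher. Their part in the C1q values was not tested.

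In ascites cells edgeR called 0 of 9 genes (1.69% of all genes higher, 0.1% lower), with 2 at an unadjusted p under 0.05 and 0 called by DESeq2. C1qc was 1217, 1200.3 and 1279 CPM with vehicle and 1112, 1069.6 and 1059.8 CPM with AP-3-84, without overlap (log2 change -0.19, SE 0.05, adjusted p = 0.0912). C5ar1 was 81.3 to 86.4 CPM against 71.4 to 73.7 CPM (-0.22, SE 0.07, 0.159). Cfb, high in these cells, was 1295 to 1344 CPM against 1217 to 1255 CPM (-0.09, SE 0.09, 0.81). The response in ascites cells minus that in thio cells was called for 0 of 9 genes, with 0.118% of all genes called, 2 of the 9 at an unadjusted p under 0.05 and 0 called by DESeq2. It was largest for C1qb, at 0.42 (2 SE either side, 0.19 to 0.65; adjusted p = 0.328). A difference in the C1q response between the 2 populations is therefore not shown.

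The responses of C3 and factor B to AP-3-84 had opposite signs in WT M2 and KO M0 cells, a contrast that was not itself tested. In WT M2 cells both fell (0.229% of all genes higher, 0.976% lower): C3 from 738, 441 and 336 CPM with vehicle to 149.8, 157 and 185 CPM (log2 change -1.62, SE 0.30, edgeR adjusted p = 0.00399). Cfb went from 23.7, 3.02 and 4.43 CPM to 2.47, 0.268 and 0.278 CPM (-3.43, SE 0.85, 0.0406). The groups did not overlap for either gene, and Cfb came down to 10 counts over the treated group from 109 with vehicle. The C3 call was lost without AP-3-84 replicate 1 (adjusted p = 0.0546), and held without vehicle replicate 1, the library with high neutrophil markers, and without all 3 libraries that stand apart (-1.25, adjusted p = 0.0089). The Cfb call was lost without vehicle replicate 1 (-1.93, 0.376), and without AP-3-84 replicates 1, 2 and 3 (-5.11, -2.96 and -2.99, with adjusted p of 0.0655, 0.236 and 0.155). It was also lost with library totals as the scale (0.051), with only the 2 groups in the fit (0.287) and without the 3 libraries that stand apart (0.297). Cfp, at 471, 459 and 403 CPM against 308, 324 and 330.2 CPM, did not overlap and was not called (-0.47, SE 0.18, 0.242). Of the 11 marker lists, 6 did not overlap between treated and vehicle libraries. M1 (79.0 to 167 against 308 to 455 CPM) and M2 markers (6227 to 7306 against 9294 to 11395 CPM) were lower. Dendritic cell (3.40 to 5.09 against 6.40 to 12.7 CPM, with 1 and 3 of the 5 detected) and T cell markers (0 to 0.278 against 0.557 to 1.27 CPM, with 1 and 2 of the 5 detected) were lower too, at counts near 0. Resident peritoneal macrophage markers (15.4 to 18.0 against 10.9 to 13.6 CPM, with 5 and 3 of the 6 detected) and the epithelial, mesothelial or ID8 list (71.7 to 124 against 44.9 to 57.9 CPM) were higher. Of the 9 genes of the latter, 2 were detected with AP-3-84 (Cdh1 and Epcam) and 1 with vehicle (Cdh1). Cdh1 is also among the M2 markers. The part of these lists in the C3 and Cfb values was not tested.

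In KO M0 cells C3, Cfb and Cfp rose with AP-3-84 and none of the 8 genes fell (12.1% of all genes higher, 8.57% lower). Cfb went from 1.83, 4.00 and 0.811 CPM to 22.5, 35.3 and 10.9 CPM (log2 change 3.39, SE 0.67, edgeR adjusted p = 0.00088). C3 went from 63.7, 77.3 and 74.1 CPM to 309.7, 187 and 98.2 CPM (1.47, SE 0.31, 0.00118). Cfp went from 333, 338 and 281 CPM to 579, 440.3 and 352 CPM (0.53, SE 0.18, 0.0352). For each gene the treated libraries lay above all vehicle libraries, and replicate 3, the library nearer to the vehicle group, was the lowest of the treated. Without the 3 libraries that stand apart the changes were 3.73, 1.80 and 0.69 (edgeR adjusted p = 3.77e-06, 5.51e-06 and 0.00484). That fit leaves out the treated library nearer to vehicle, so its larger changes and smaller p-values are no further evidence of a response. Without vehicle replicate 2 the Cfb change was 4.08. The Cfp call was lost without vehicle replicates 1, 2 and 3 (adjusted p = 0.0563, 0.0552 and 0.132) or AP-3-84 replicates 1 and 2 (0.281 and 0.0822), and, like that of C3, with only the 2 groups in the fit (0.128, and 0.0504 for C3). Treated C3 (98.2 to 309.7 CPM) overlapped the WT M0 vehicle libraries (84.8 to 208 CPM). The C1q chains, at 1378, 828 and 929 CPM for C1qa, 3392, 2155 and 2781 CPM for C1qb and 1792, 1148 and 1527 CPM for C1qc, overlapped the vehicle libraries and were not called (log2 changes -0.36, -0.50 and -0.20). C5ar1 was not called either (-0.60, adjusted p = 0.302), but was without the 3 libraries that stand apart (-0.89, 0.0156). The fibroblast markers sum to 50.6 to 223 CPM and the macrophage markers to 18695 to 39746 CPM in the treated libraries, against 161 to 288 and 32911 to 39725 CPM with vehicle. Of the 11 marker lists, 5 did not overlap between treated and vehicle libraries. M1 (124 to 346 against 100.4 to 117 CPM) and B cell markers (6.62 to 22.7 against 2.16 to 5.23 CPM, with Cd79b alone detected) were higher. M2 (87.8 to 316 against 387 to 491 CPM), neutrophil (281 to 448 against 544 to 671 CPM) and eosinophil or mast cell markers (0.794 to 3.28 against 3.93 to 4.31 CPM, with 2 and 3 of the 5 detected) were lower. Their part was not tested. The KO M0 vehicle libraries serve both here and in the genotype and polarization comparisons, so these are not independent of each other.

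**Figure D5:**
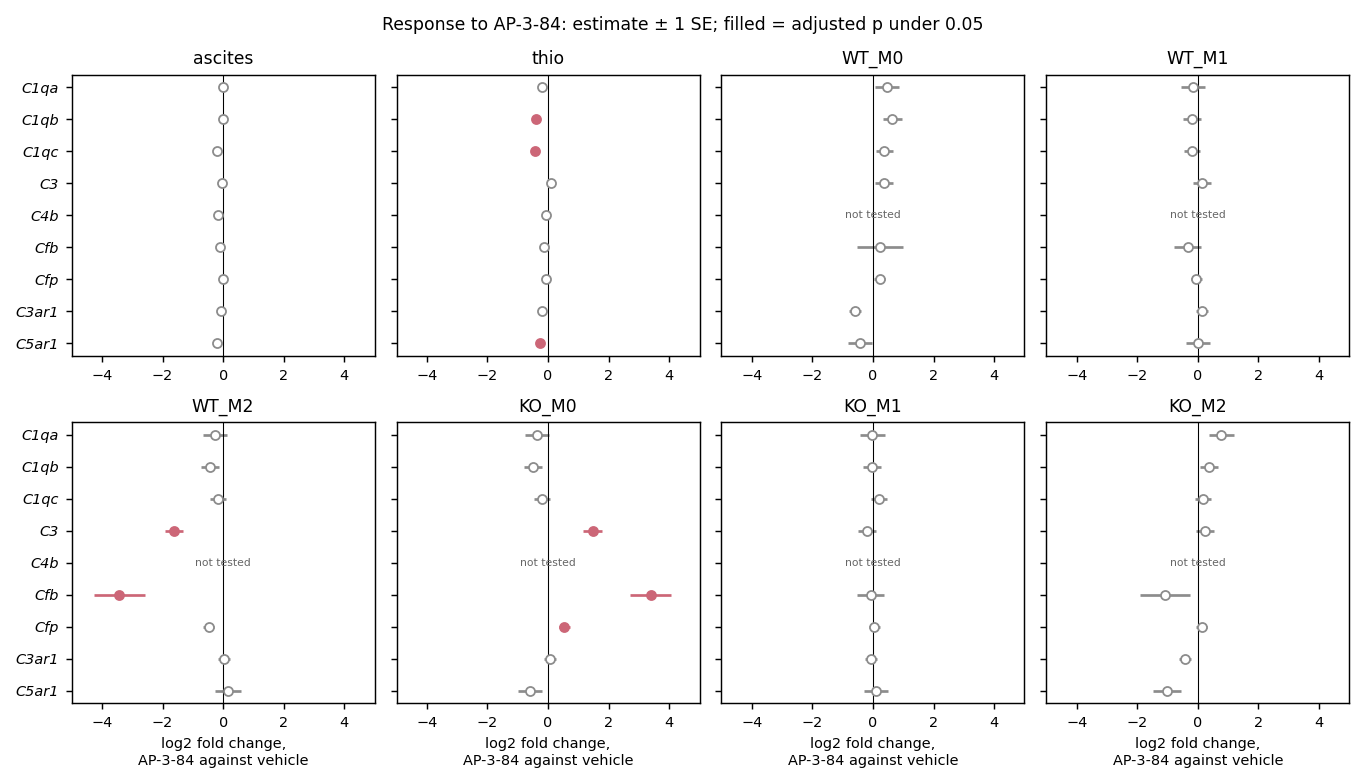
Log2 change with AP-3-84 against vehicle (horizontal axis) for each gene in each population, as the edgeR estimate with a bar of 1 SE either side; filled red points have an adjusted p under 0.05. The 8 called points lie in thio (C1qb, C1qc and C5ar1, from -0.28 to -0.45), WT M2 (C3 and Cfb, lower) and KO M0 cells (C3, Cfb and Cfp, higher).

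No complement gene was called in the other 4 populations. In WT M0, 0 of 8 were called (0.144% of all genes higher, 0% lower), 2 at an unadjusted p under 0.05 and 0 by DESeq2. C3ar1 had 1596, 1403 and 1359.7 CPM with vehicle and 941, 947 and 1006 CPM with AP-3-84 there, without overlap (log2 change -0.59, SE 0.20, edgeR adjusted p = 0.327). C1qb in the same cells was 816, 1237 and 1364 CPM against 2071, 1889.8 and 1377 CPM (0.64, SE 0.30, 0.503). In WT M1 (0.017% higher, 0% lower) and KO M1 (0% higher, 0% lower) 0 of 8 genes were called, 0 had an unadjusted p under 0.05 and DESeq2 called 0. Cfb there was 493, 361 and 277 CPM with AP-3-84 in WT M1 (-0.34; 2 SE either side, -1.22 to 0.54) and 258, 304 and 289 CPM in KO M1 (-0.08; -0.96 to 0.80). The KO M1 values include AP-3-84 replicate 1, the library of that group with high neutrophil markers. In KO M2 (0.034% higher, 0.017% lower) 0 of 8 were called, 2 at an unadjusted p under 0.05 and 0 by DESeq2, the lowest p being that of C5ar1 (14.3, 29.5 and 60.0 CPM with vehicle and 23.3, 15.8 and 12.4 CPM with AP-3-84; -1.02, SE 0.45, adjusted p = 0.348). Without vehicle replicate 3, the highest of these and a library that stands apart, its change was -0.38 (adjusted p = 0.952).

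Whether KO and WT cells responded differently was tested directly. In M0 cells the difference was called for Cfb alone among the 8 genes, at 3.16 (SE 1.05, edgeR adjusted p = 0.0386), where 17% of all genes were called. That call was lost without any of 8 libraries: WT vehicle replicates 2 and 3 (adjusted p = 0.131 and 0.0703), WT AP-3-84 replicates 1 and 3 (0.0698 and 0.0706), KO vehicle replicates 1 and 3 (0.074 and 0.0963) and KO AP-3-84 replicates 1 and 2 (0.0613 and 0.114). Without KO vehicle replicate 2 it was 3.85 (adjusted p = 0.031). Without the 3 libraries that stand apart it was 3.51 (0.00169). C1qb, at -1.15 (SE 0.42, 0.0595), and C3, at 1.10 (SE 0.43, 0.0729), came next. Without those 3 libraries both were called, as was C3ar1 (-1.14, 1.44 and 0.77, with edgeR adjusted p of 0.0408, 0.0027 and 0.0126). That fit leaves out the KO treated library nearer to KO vehicle, so its calls are no further evidence of a difference. In M2 cells the difference was called for C3 alone, at 1.85 (SE 0.42, 0.0209), where 1.77% of all genes were called; C3 in KO M2 was 446, 361 and 414 CPM with vehicle and 623, 403 and 406 CPM with AP-3-84. It was lost without WT vehicle replicate 1 (0.056), WT AP-3-84 replicates 1 and 2 (0.0795 and 0.0631) or KO vehicle replicates 2 and 3 (0.0794 and 0.0724), and was 1.50 (0.0466) without the 3 libraries that stand apart. In M1 cells it was called for 0 of 8 genes (0.00849% of all genes), with 0 at an unadjusted p under 0.05 and 0 called by DESeq2.

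Of 50 other complement genes listed by role, 27 were tested in peritoneal and 16 in bone marrow-derived cells. Ascites against thio gave 8 higher and 8 lower of 27, beside 20.3% and 13.4% of all genes (median log2 difference 0.00 over the 27, 0.05 over all genes). The 3 with the lowest p were Cd93, once described as a C1q receptor (-2.21, SE 0.07), the scavenger receptor Lrp1 (-1.70, SE 0.07) and Vsig4, a receptor for C3 fragments (-1.48, SE 0.06), all lower in ascites cells, with adjusted p from 5.51e-14 to 5.71e-12. With AP-3-84, Cd93 fell in thio cells (-0.48, SE 0.06, adjusted p = 0.000205), the only one of the 27 called there, and 0 of the list were called in ascites, WT M0, WT M1, WT M2, KO M1 and KO M2 cells. In KO M0 cells it gave 3 higher and 3 lower of 16, beside 12.1% and 8.57% of all genes (medians -0.41 for the 16 and -0.03 for all genes), led by Cd93 (-1.10), Cd55 (8.23) and Itgam (1.06). Cd55, the decay-accelerating regulator that takes convertases apart, was at 0 to 0.308 CPM in KO M0 vehicle libraries, 17.2 to 62.7 CPM with AP-3-84 and 23.5 to 53.4 CPM in WT M0 vehicle, so its log2 values depend on counts near 0. Itgam is a chain of complement receptor 3.

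In the bone marrow-derived vehicle cells all counts are of the 16 genes tested. M1 against M0 gave 1 higher and 5 lower in WT cells, where 8.01% of all genes were higher and 7.49% lower, led by the lectin pathway ficolin Fcna (-2.52), Itgam (0.91) and Cd93 (-0.71). In KO cells it gave 3 higher and 7 lower, beside 22.8% and 21.8% of all genes, led by Cd93 (-1.44), Lrp1 (-1.32) and Itgam (1.44). M2 against M0 gave 1 higher and 3 lower in WT cells (12.7% and 10.7% of all genes), led by Itgax (7.99), Lrp1 (-1.14) and Cd93 (-0.96). In KO cells it gave 6 higher and 5 lower (20.1% and 18%), led by Cd93 (-1.74), Itgax (4.74) and Lrp1 (-1.34). Itgax, a chain of complement receptor 4, went from 1.43 to 3.58 CPM in WT M0 to 272 to 728 CPM in WT M2. KO against WT gave 2 higher and 6 lower in M0 cells (16.4% and 16.8%), led by Cd55 (-8.09), Itgam (-0.97) and C1qbp (-0.76). It gave 1 higher and 3 lower in M1 cells (5.93% and 5.71%), led by Lrp1 (-1.03), Itgb2 (-1.10) and Calr (-0.41), and 0 in M2 cells. With so few genes, no count is set apart from the share over all genes.

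The genes whose levels followed each member most closely over the 36 bone marrow-derived libraries were named by Pearson's r of log2 CPM among 8123 genes; the libraries share their groups and scaling, and no p is given. Each C1q chain had the other 2 chains as its nearest genes (r from 0.92 to 0.93), followed by Apoe for C1qa (0.92), Ifngr1 for C1qb (0.91) and Mbnl1 for C1qc (0.91). Cfb was closest to Saa3 (0.98), Lcn2 (0.96) and Hp (0.95). C3 was closest to AW112010 (0.88), Vmp1 (0.87) and Lad1 (0.86), and Cfp to Gmfg (0.94), Adgre1 (0.93) and Hcls1 (0.93). C3ar1 was closest to Tnfrsf11a (0.93), Zc3h12d (0.92) and Fcgr1 (0.91), and C5ar1 to Gng2 (0.95), Ctla2b (0.95) and Elk3 (0.94). Between members, r was 0.88 for C3ar1 and C5ar1, 0.77 for Cfb and Cfp, and -0.60 for C1qa and C3.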

How the data were processed

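Per the labels' protocols, QuantSeq FWD 3′ libraries were made from 100 ng of total RNA per sample and sequenced as single reads of 75 bases. The authors deposited 1 table of whole-number counts per Ensembl gene ID for 48 libraries, with 0 columns that matched no sample. The submitters' processing notes name RSEM, Bowtie2 and DESeq2, without role or version; the sources used here do not say which build, annotation or strand setting was used, or whether molecular identifiers were. Library totals were 15532373 to 19417581 (peritoneal) and 3081707 to 4645148 (bone marrow-derived), and depth limits low genes. A 3′ read does not show splicing or isoforms. Of 51789 gene IDs, 51596 matched a symbol in the table of gene names.

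The 12 peritoneal and 36 bone marrow-derived libraries were fitted apart with edgeR 4.0.16 in R 4.3.3 (filterByExpr by group, TMM scaling, robust quasi-likelihood test, 1 mean per group), which tested 16955 and 11779 genes, with a biological coefficient of variation of 0.168 and 0.225. There were 16 comparisons and 6 differences between them. Genes were called at a two-sided Benjamini-Hochberg adjusted p under 0.05 over all genes of a comparison. Where groups are said not to overlap, this describes 3 libraries against 3. No share of all genes without overlap is given beside it. CPM are computed from the deposited counts with TMM scaling within each set. SE is the log2 change divided by the root of the quasi-likelihood F. Over the 48 pairs of replicates the mean chi-square per gene was 2.51 to 38.7, above that of counting noise, and 0 pairs were identical. The fit was tested on simulated data.

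The text names the 9 members in all groups; of the other complement genes, at most 3 called ones per comparison with the lowest p; and the 3 genes most like each member (log2 CPM with a prior count of 2, average of 3 or more). Members, lists and tests were chosen with earlier results of these data known. Alternatives were median-ratio size factors, library totals, no filter, DESeq2 1.42.0, only the groups compared, all 48 libraries, a replicate block and leaving out each library; leaving out 3 libraries that stand apart was chosen after seeing the data. Counting limits cover counting error only. C1qa, C4b and Cfb have no promoter printed.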

Additional observations from a re-analysis of the deposited data

Results flagged for a closer look

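Differences between KO and WT cells passed the test of the difference itself for 9 pairs of a gene and a comparison, each with 3 libraries in each of 4 groups. Among all genes tested, 17%, 0.00849% and 1.77% were called for the KO minus WT response in M0, M1 and M2 cells. For the M1 minus M0 and M2 minus M0 differences, 20.7% and 27.1% were called. The count of 9 therefore does not by itself set the complement genes apart. The AP-3-84 response was higher in KO than WT cells by 3.16 on the log2 scale for Cfb in M0 cells (SE 1.05, edgeR adjusted p = 0.0386) and by 1.85 for C3 in M2 cells (SE 0.42, 0.0209). The M1 minus M0 difference was lower in KO than WT cells by -1.89 for C1qa (SE 0.57, 0.0203), -1.84 for C1qb (SE 0.42, 0.00259) and -1.31 for C1qc (SE 0.38, 0.0138), and higher by 1.22 for C3 (SE 0.43, 0.0413). The M2 minus M0 difference was lower in KO than WT cells by -2.53 for C1qa (SE 0.58, 0.00223), -2.23 for C1qb (SE 0.43, 0.000382) and -1.17 for C1qc (SE 0.38, 0.0221). Of the 9, all but that of C3 in M2 cells use the KO M0 vehicle libraries.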

How the results depend on the processing

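Of 51 called pairs of a gene and a comparison, 33 kept their call under every alternative run, 18 lost it under at least 1 and 13 when 1 library was left out; none changed sign. Of 129 pairs not called, 27 were called under some alternative. Without the filter on low counts the called pairs numbered 13 for AP-3-84 (8 as reported), 11 for KO against WT (7) and 19 for differences between responses (9). With all 48 libraries in one fit, AP-3-84 gave 5. Without the 3 libraries that stand apart, differences between responses gave 14. The cause was not tested. Leaving out 1 library gave from 6 to 10 calls for AP-3-84, 9 for M1 against M0, 9 to 10 for M2 against M0, 5 to 8 for KO against WT, 8 for ascites against thio and 7 to 12 for differences between responses.

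Replicate numbers are shared by vehicle and AP-3-84 libraries, but most same-numbered libraries did not deviate together (r over 0.1 in 4 of 24 pairs and below 0 in 18, from -0.53 to 0.52, with 0 populations with all 3 over 0.1). The 4 pairs were replicates 1 and 3 of WT M2 (0.26 and 0.27, with -0.15 for replicate 2) and replicates 1 and 2 of KO M1 (0.45 and 0.52, with -0.06 for replicate 3). A partial pairing in these 2 populations is therefore not excluded. In none of the 8 populations did every library correlate best with its own number. With a replicate block, AP-3-84 gave 5 calls, without C1qb and C5ar1 in thio (adjusted p = 0.062 and 0.12) and C3 in WT M2 cells (0.0603). The block also left uncalled the KO minus WT response of C3 in M2 (0.113) and C3ar1 in ascites against thio (0.0757).

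Scaling by library totals shifted the median of all genes by over 0.1 on the log2 scale in ascites against thio (0.14), AP-3-84 in WT M2 (0.11), M1 and M2 against M0 in WT (-0.30 and -0.20), KO against WT in M1 and M2 (0.27 and 0.19), the KO minus WT response in M2 (-0.15) and the KO minus WT differences of M1 and M2 from M0 (0.23 and 0.13). The share of higher calls among all calls was then 81.8% against 94.4% for AP-3-84 in ascites, 33.1% against 19% in WT M2, 16.9% against 51.7% for M1 and 30.7% against 54.2% for M2 in WT, 89% against 50.9% and 76.6% against 34.1% for KO against WT in M1 and M2, and 36.1% against 61.1%, 76.4% against 54.1% and 65.2% against 51.4% for the KO minus WT differences in M2 response, M1 and M2. TMM over all 48 libraries put 0 to 7 of 120 pairs of group means per gene in another order. Depth limits C4b in bone marrow-derived cells, and Cfb in M0 and M2 cells.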

Other observations

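The balance of the 3 C1q chains differed between the sets of libraries. In the 12 peritoneal libraries the ratio of C1qa to C1qb counts within a library ran from 0.957 to 1.33, and in the 36 bone marrow-derived libraries from 0.140 to 0.406, with no overlap. The ratio of C1qc to C1qb ran from 0.942 to 1.30 and from 0.352 to 0.860, again with no overlap. A ratio within a library does not depend on how libraries are scaled. It compares counts of 3′ ends, so it is not a ratio of protein chains. Within the bone marrow-derived cells the median log2 ratio of C1qa to C1qb was lowest in KO M2 vehicle (-2.46) and highest in KO M0 cells with AP-3-84 (-1.38). The sets differ in source, sex of donors, handling and depth, which cannot be told apart here, and no test was made.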
